A study of Mus musculus with 32 samples.

Results

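Glia captured around lumbar motor neurons of SOD1-G93A mice were compared with glia of littermate control mice, on the 8 arrays of 32 whose titles name this comparison. The 8 arrays hold 4 littermate pairs, each hybridised on 2 arrays with the dyes exchanged. The transgenic mice were B6SJL-Tg(SOD1-G93A)1Gur, which carry a mutant human SOD1 gene, and the controls were B6SJL littermates without it. All were female and 8 weeks old. About 500 cells next to anterior horn motor neurons were taken from each mouse by laser capture from 12 µm sections stained with cresyl violet. Cells were picked by position and shape, so a capture can hold astrocytes, oligodendrocytes, microglia, vessel cells and neuronal processes together, and n is 4 pairs throughout. The other 24 arrays hold motor neurons of the same model and both cell types of TAU-P301L mice with their littermate controls, and are used here for the spread between pairs and for tests of differences. The TAU-P301L mice, B6D2F1-Tg(TAU-P301L), and their B6D2F1 controls were also female but 16 weeks old, so that model differs in age and strain as well.

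SOD1-G93A mice are a model of amyotrophic lateral sclerosis, in which motor neurons die. Misfolded mutant SOD1 is made in neurons and glia alike, and work in mice with cell-type-specific expression has tied astrocytes and microglia to the pace of disease. Astrocytes clear glutamate and potassium and supply lactate, oligodendrocytes wrap axons and feed them, and microglia respond to injury with a change of gene expression that includes the receptor Trem2.

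Ratios are log2 of transgenic over control, so a positive value means a higher signal in SOD1-G93A glia. Testing a gene asked that at least 4 of the 8 extracts gave a signal well above background on both dye-exchanged arrays. Of 27841 genes or single probes on the array, 10465 were tested. Of these, 9119 had a value in all 4 pairs, 1330 in 3 and 16 in 2, because outlier-flagged spots were left out. The share of spots well above background was 50.9% to 65.9% in the Cy3 channel and 18.6% to 72.02% in the Cy5 channel. The small number of arrays limits the precision of every value below. The mouse Sod1 probe read -0.11, -0.45, -0.16 and 0.29 in pairs 1 to 4. Its mean was -0.11 ± 0.30 (SD, n = 4 pairs; limma, Benjamini-Hochberg adjusted p = 0.649). It was designed on the mouse gene, so it does not check the labels, and whether it also reads the human transgene was not tested.

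The captures differed from motor neuron captures in the direction of their label, with limits. Control glia extracts were set against control motor neuron extracts of the same colony, 4 against 4. Over 9574 genes, 8.59% lay above the motor neuron extracts without overlap and 9.09% below. Of 10 astrocyte markers 6 lay above without overlap, among them Glul, the enzyme of glutamine synthesis, at a mean difference of 1.76 and Mlc1 at 1.64. Of 9 oligodendrocyte markers 3 lay above, with the myelin protein gene Mag at 2.21, as did 3 of 5 precursor markers. The median difference was 0.96 over the astrocyte list, 0.11 over the oligodendrocyte list and 0.84 over the precursor list. Microglia markers had 2 of 11 above. Motor neuron markers had 3 of 10 below, with the neurofilament gene Nefm at -1.89 and a list median of -1.04. Mnx1 (0.27) and Chodl (0.35) of that list differed the other way. Pan-neuronal markers had 1 of 11 below and interneuron markers 1 of 9, against 9.09% of all genes. Gfap was well above background in 1 transgenic and 2 control extracts and Chat in 2 and 1, so neither was tested. Mbp and the neuronal gene Snap25 were above it in all 8 extracts, so neuronal RNA was present in the glia captures. Cell type coincides with scan and scanner software version in this series, and their effects cannot be told apart.

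The 4 pairs differed in quality. Across tested genes, both arrays of a pair correlated at -0.0807 in pair 1, -0.46 in pair 2, 0.48 in pair 3 and 0.507 in pair 4. Both arrays had the same sign for 43.7% of genes in pair 1, 17.4% in pair 2, 60.7% in pair 3 and 52.9% in pair 4. The arrays of pair 2 carried 3863 and 2587 outlier-flagged spots, against 26 to 70 on the other 6 arrays. Pair 1 was scanned in scan 6, pair 2 in scan 5 and pairs 3 and 4 in scan 3. The pair ratios correlated best between pairs 2 and 4 (r = 0.486 across genes, which are not independent replicates) and at 0.0948 to 0.275 otherwise. Their spread over genes was narrowest in pair 1 (SD 0.17) and widest in pair 4 (0.335).

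**Figure D1:**
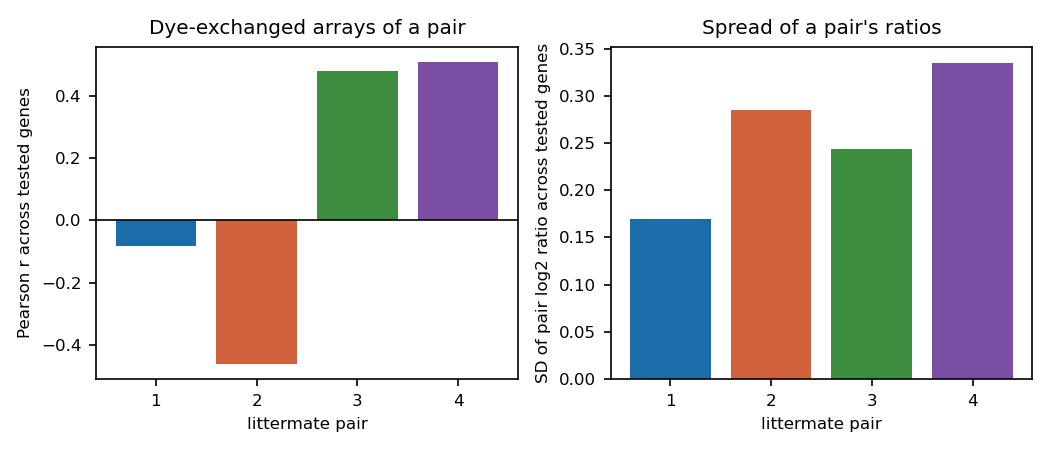
Left, Pearson correlation across tested genes between both dye-exchanged arrays of each SOD1-G93A glia pair, after turning all ratios to transgenic over control. Right, the SD across tested genes of each pair's mean log2 ratio. Pairs 1 and 2 lie below 0 on the left at -0.0807 and -0.46, and pair 4 has the widest spread at 0.335.

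Marker lists showed that pair 3 stood apart in its ratios for markers of other cells. The 12 tested motor neuron markers had a median of 1.08 in pair 3, against -0.15, -0.45 and -0.06 in pairs 1, 2 and 4. Nefl, the light neurofilament, read -0.73, -0.56, 1.74 and -0.14, and the choline transporter gene Slc5a7 read 0.16, -0.09, 1.54 and 0.14. The 13 pan-neuronal markers had a median of 0.42 in pair 3 and of -0.07 to 0.01 in the others. The 6 tested fibroblast and meningeal markers went the other way, at -1.40 in pair 3 against 0.16, 0.22 and 0.36, with the collagen gene Col1a2 at 0.16, 0.30, -1.55 and 0.63. In bulk captures, fewer cells of a type and less RNA per cell cannot be told apart. The genes that passed are therefore given by pair, as are most others, and the part of cell content in the results was not tested.

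**Figure D2:**
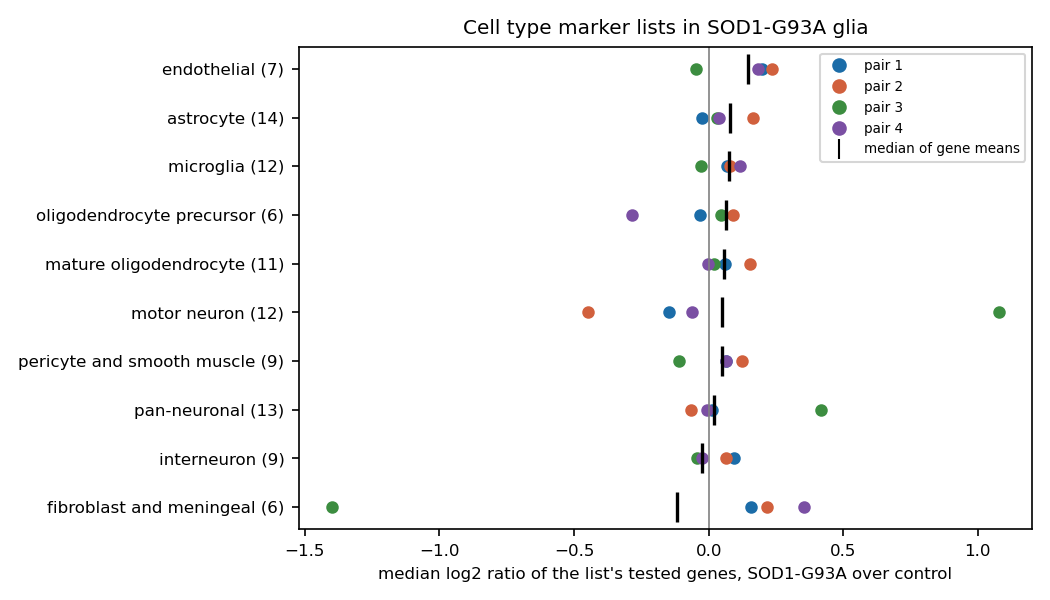
Median log2 ratio of transgenic over control for each list of cell type markers with at least 5 tested genes, number tested in brackets. Each dot is 1 littermate pair and the bar is the median of the gene means over pairs; pair 3 lies at 1.08 for motor neuron markers and at -1.40 for fibroblast and meningeal markers.

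In SOD1-G93A glia, 5 genes were higher and 3 lower than in control glia at an adjusted p under 0.05. The higher genes were Ank3, Ammecr1l, Taok1, Ints3 and Slc6a6, and the lower genes Akr1cl, Muc6 and Nup54. All 8 had an adjusted p of 0.0468 (limma, Benjamini-Hochberg over 10465 genes), just inside the threshold. They are 0.0764% of the genes tested, 0.0478% for the higher and 0.0287% for the lower. These calls are weak, and they rest on a choice made with the counts known. limma shares a prior for the variance across genes, and the reported fit takes it from all genes of the array, with the adjustment over the tested genes. With the prior from the tested genes alone, which was run first, 0 genes passed (smallest adjusted p = 0.0817, 1478 genes at an unadjusted p under 0.05). With the prior from genes tested in any of the 4 comparisons 0 passed (0.064, 1561 genes). The 4 pairs alone gave 0 with either prior (0.0666 with all genes and 0.273 with tested genes; 1776 and 1193 genes unadjusted). Leaving out any 1 of the 4 pairs also gave 0, with 1815, 1401, 1678 and 1175 genes at an unadjusted p under 0.05 without pairs 1 to 4 in turn. All 8 genes kept their direction in these fits, and each had an unadjusted p under 0.05 there.

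Among the higher genes, Ank3 had the largest mean. It encodes ankyrin-G, the scaffold that gathers sodium channels at the axon initial segment and at nodes of Ranvier. Its ratios were 0.57, 1.04, 0.39 and 0.52 in pairs 1 to 4, a mean of 0.63 ± 0.28 (SD, n = 4). All 8 arrays lay above 0, from 0.20 to 1.88. The highest and the lowest array were both of pair 2. The normalised log2 intensity was 9.39, 9.20, 9.76 and 9.29 in the transgenic extracts and 8.83, 8.16, 9.36 and 8.76 in the controls. Each transgenic extract was brighter than its own littermate, while the groups as a whole overlapped at 9.20 against 9.36. Ank3 was also one of the genes that lie higher in control motor neurons than in control glia of the TAU-P301L colony without overlap.

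Slc6a6, the taurine transporter, had ratios of 0.28, 0.60, 0.20 and 0.42, with a mean of 0.37 ± 0.17. All 8 of its arrays lay above 0. Its transgenic extracts read 7.43 to 7.82 in log2 intensity and its controls 7.23 to 7.28, without overlap. Taok1, a kinase upstream of stress-activated MAP kinases that also acts on microtubules, had ratios of 0.34, 0.43, 0.60 and 0.26 (mean 0.41 ± 0.15). Its arrays with the transgenic extract in Cy3 lay below 0 in pair 1 at -0.015 and in pair 4 at -0.21, so 6 of 8 arrays were above 0.

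Ints3 encodes a subunit of Integrator, which processes small nuclear RNAs and ends transcription early at many genes. Its ratios were 0.38, 0.24, 0.48 and 0.42, a mean of 0.38 ± 0.10. In pair 2 its arrays read 1.22 and -0.75, so that pair's value is the mean of opposite signs. Ammecr1l had ratios of 0.34, 0.54, 0.42 and 0.69 (mean 0.50 ± 0.15), and in pair 2 its arrays read 1.31 and -0.24. Ints3 and Ammecr1l also lie on the motor neuron side in TAU-P301L controls.

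Among the lower genes, Akr1cl had the largest fall, with ratios of -0.32, -0.24, -0.28 and -0.56 and a mean of -0.35 ± 0.14. It belongs to the aldo-keto reductases, which reduce carbonyl groups with NADPH. All 8 arrays lay below 0. Muc6, a secreted gel-forming mucin known from the stomach, had ratios of -0.19, -0.30, -0.24 and -0.46 (mean -0.30 ± 0.12), also below 0 on all 8 arrays. Nup54, a nucleoporin of the central channel of the nuclear pore, had the smallest change of the 8, at -0.18, -0.28, -0.21 and -0.17 (mean -0.21 ± 0.05). Its narrow spread between pairs hides wide disagreement between arrays: pair 2 read 0.25 and -0.82, and pair 4 read -0.43 and 0.08.

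The signal behind 3 of the 8 genes was low. The median log2 intensity of tested genes was 6.69, and Nup54 at 6.48, Taok1 at 6.61 and Akr1cl at 6.69 lay below or at it, while the other 5 read 7.04 to 8.91. Nup54 was well above background in 5 of 8 extracts, and Taok1, Akr1cl and Ammecr1l in 7. The 8 genes had 12 further probes on the array. Only 1 of the 12 was well above background in at least 4 extracts, a second Akr1cl probe at -0.21 ± 0.13, and it lay in the same direction. The probes read lie, in build mm8 as the file headers give it, at chr10:69419883-69419942 for Ank3, chr11:77353880-77353939 for Taok1, chr3:90477322-90477381 for Ints3 and chr6:91724130-91724189 for Slc6a6. Those of the lower genes lie at chr1:64964152-64964211 for Akr1cl, chr7:141487786-141487845 for Muc6 and chr5:93490969-93491028 for Nup54.

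**Figure D3:**
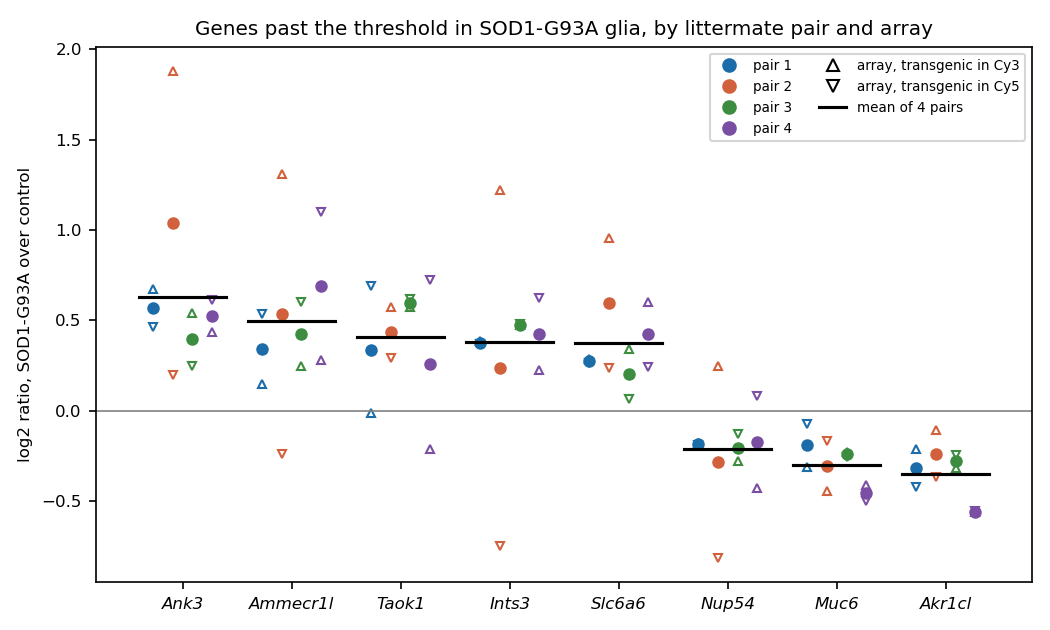
Log2 ratio of SOD1-G93A over control glia for the 8 genes past the threshold. Filled circles are littermate pairs (mean of both arrays), open triangles the single arrays by the dye of the transgenic extract, and the bar the mean of 4 pairs. All circles of a gene lie on 1 side of 0, while the arrays of pair 2 reach 1.22 and -0.75 for Ints3.

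Promoter sequences from RefSeq on GRCm38.p6 were at hand for 5 of the 8 genes, Akr1cl, Ints3, Muc6, Nup54 and Taok1. The 250 bases before the start were searched on both strands for 9 motifs. The last 120 bases before the start are shown 5′ to 3′ on the gene's strand, at chr5:92435200-92435319 for Nup54, chr1:65032760-65032879 for Akr1cl, chr11:77607816-77607935 for Taok1, chr3:90433637-90433756 for Ints3 and chr7:141655394-141655513 for Muc6. They let the genes that rose be set beside those that fell, with capitals marking motif matches; matches of Taok1 and Muc6, and others of Akr1cl, lie farther upstream.
Nup54: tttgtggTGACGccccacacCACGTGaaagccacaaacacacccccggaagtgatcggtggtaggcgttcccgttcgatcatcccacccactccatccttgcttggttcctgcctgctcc
Akr1cl: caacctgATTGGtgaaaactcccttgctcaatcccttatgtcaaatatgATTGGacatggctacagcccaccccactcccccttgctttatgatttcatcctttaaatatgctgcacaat
Taok1: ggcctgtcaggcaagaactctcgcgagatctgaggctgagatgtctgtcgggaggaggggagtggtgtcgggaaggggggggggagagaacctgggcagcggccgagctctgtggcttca
Ints3: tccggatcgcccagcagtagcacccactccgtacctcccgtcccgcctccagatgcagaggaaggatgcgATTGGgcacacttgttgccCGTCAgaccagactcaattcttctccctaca
Muc6: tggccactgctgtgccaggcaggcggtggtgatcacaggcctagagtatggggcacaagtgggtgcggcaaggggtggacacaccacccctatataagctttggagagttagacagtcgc

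The CCAAT box (CCAAT) was in 3 of the 5 promoters, Akr1cl, Ints3 and Muc6, and in 33.8% of 32851 promoters of the same length. The short cyclic AMP element (TGACG) was in Ints3 and Nup54, against 17.8% of all promoters. The GC box (GGGCGG) was in Taok1 alone of the 5 (32.7% of all promoters). The E-box (CACGTG, 6.02% of all) and the hypoxia element (ACGTG, 16.6%), which overlaps it, were in Nup54. The antioxidant element TGACNNNGC was in Akr1cl (10.2% of all) and the heat shock element GAANNTTC in Muc6 (6.69%). The full cyclic AMP element TGACGTCA (1.55% of all) and TATAAA (12.4%) were in none of the 5. No motif was shared by all 5 genes, by all 3 genes that fell or by both genes that rose. These matches describe letters in a window and show no binding.

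Below the threshold, small differences lay on both sides of 0. Of all tested genes, 56.8% lay above 0. At an unadjusted p under 0.05, 805 genes were above 0 (7.69%) and 891 below (8.51%), where 5% of the tested genes is 523. This balance turned with single pairs: it was 506 above and 895 below without pair 2, 666 and 509 without pair 4, 867 and 948 without pair 1, and 850 and 828 without pair 3. With each array centred on its median in place of loess it was 932 and 249. Of the genes with 4 pairs, 995 lay above 0 and 999 below in every pair. Only 174 of 9119 (1.91%) had the same sign on all 8 arrays, 68 above 0 and 106 below. The differences were small: 87.5% of the genes at an unadjusted p under 0.05 had a mean under 0.5 in size. Just outside the threshold lay an unnamed probe at 0.26 and Ppargc1a, both at an adjusted p of 0.0530 (limma), and just inside it Muc6 and Slc6a6.

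Of the next genes above 0, Ppargc1a came closest to the threshold. It encodes the coactivator that drives mitochondrial biogenesis, and read 0.21, 0.28, 0.41 and 0.23 (mean 0.28 ± 0.09), above 0 on all 8 arrays. Its other probe, above background in 5 extracts, read 0.06 ± 0.07. Arl8a, the small GTPase that couples lysosomes to kinesin, read 0.33, 0.40, 0.57 and 0.83 (adjusted p = 0.0804). Borcs8, a subunit of the complex that brings Arl8 to lysosomes, read 0.32, 0.25, 0.15 and 0.29. The endosomal sorting gene Snx27 read 0.27, 0.24, 0.47 and 0.31, and the lysosomal protease gene Ctsf 0.14, 0.14, 0.13 and 0.14. These genes were chosen among those with 1 sign in all 4 pairs that did not pass, so neither property is a result about them. The list of autophagy and lysosome genes had a median of 0.02, against 0.02 for all tested genes. On single arrays Ctsf was above 0 on 5 of 8 and Arl8a, Borcs8 and Snx27 on 7 of 8. The others were Myh14, Meiob, Ankrd33, AI854703, 1700020L24Rik and Rbm18, with means of 0.12 to 0.47.

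Of the 12 next genes below 0, Bsn had the largest mean. It encodes bassoon, a scaffold of the presynaptic active zone, and read -0.24, -0.53, -0.36 and -0.99, below 0 on all 8 arrays (mean -0.53 ± 0.33, adjusted p = 0.0804). Il18, an inflammatory cytokine, read -0.16, -0.32, -0.26 and -0.34, also on all 8 arrays. Phc1, of a Polycomb repressive complex, read -0.26, -0.32, -0.42 and -0.95, while its other probe above background read 0.13. The Ncor1 probe (-0.19) lies on the other strand from the probes of that gene's RefSeq transcript, so it may not read the corepressor's own RNA. Krtap4-6 and Lce1l, genes of hair and cornified skin, read -0.46 and -0.41. The others were Zfp560, Zfp85os, Slc22a30, Tmem252, Surf6 and Epn1, with means of -0.38 to -0.14. In TAU-P301L glia all of the 12 but Krtap4-6 (0.10) and Zfp85os (0.01) also had a mean below 0. Bsn had -0.27 there, Phc1 -0.30, Tmem252 -0.31 and Lce1l -0.39. The share of all tested genes below 0 in TAU-P301L glia is not given here. In SOD1-G93A motor neurons all of the 12 had a mean above 0, from 0.01 for Ncor1 to 0.17 for Bsn. None of the 12 passed.

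No glial marker passed the test. Astrocyte markers had 12 of 14 tested genes above 0, a median of 0.08 against 0.02 for all tested genes, and 0 passed. The glutamate transporter gene Slc1a2 read 0.49, 1.00, -0.45 and 1.38, with pair 3 opposite to the others (mean 0.60 ± 0.79, adjusted p = 0.255). Another probe of Slc1a2 above background read 0.18 ± 0.27. Microglia markers had 9 of 12 above 0 and a median of 0.08. Trem2, the receptor of reactive microglia, had the largest mean of them, at 0.20, 0.13, 0.24 and 0.21 (mean 0.19 ± 0.05, adjusted p = 0.0831), though 2 of its 8 arrays lay below 0. Aif1, a marker of microglia, had a mean of 0.07 ± 0.11. Oligodendrocyte markers had 9 of 11 above 0. Fa2h, which makes hydroxylated myelin lipids, read 0.09, 0.35, 0.24 and 0.28 (adjusted p = 0.0923), with 2 of its 8 arrays below 0, while the major myelin gene Mbp had a mean of -0.15 ± 0.28, with pair 4 the lowest. The other Mbp probes above background read 0.20 ± 0.19 and 0.12 ± 0.21, opposite in sign.

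The endothelial list had the highest median of the marker lists, and the other vessel lists lay lower. Of 7 endothelial markers 6 lay above 0, with a median of 0.14 and 0 passing. Pericyte and smooth muscle markers had 6 of 9 above 0 and a median of 0.05, and genes of vascular growth and barrier 6 of 9 and a median of 0.00. Flt1, a receptor for vascular growth factors, read 0.83, 0.96, 0.07 and 1.19 (mean 0.76 ± 0.49, adjusted p = 0.0832), and its other probe above background in 4 extracts read 0.20 ± 0.04. The glucose transporter gene Slc2a1 read 0.31, 0.88, -0.26 and 1.03, and Ly6c1 0.14, 0.86, -0.04 and 0.77. These 3 had the largest means of the 7. All of the 7 but Esam were lowest in pair 3, the pair with low ratios of fibroblast markers. Cldn5 read -0.09 in that pair, Emcn -0.05 and Tek -0.12. Esam, a junction protein gene, was highest in pair 3, at 0.19, 0.09, 0.27 and -0.05.

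Genes of neurons and axons ran in both directions. The list of the axon initial segment and node of Ranvier had 1 of 17 tested members passing (Ank3), and 4 above and 4 below 0 at an unadjusted p under 0.05. Over all tested genes 0.0764% passed, and 7.69% lay above and 8.51% below 0 at that p. Sptbn4, the spectrin that anchors ankyrin-G at these sites, read -0.18, -0.72, -0.31 and -0.71 (adjusted p = 0.0831), opposite to Ank3 in every pair, though 2 of its 8 arrays lay above 0. The sodium channel gene Scn2a read -0.18, -0.07, -0.19 and -0.39. The potassium channel gene Kcna1 read 0.18, 1.21, 0.68 and 0.68. Of 30 genes of neurofilaments, tubulins and axonal transport, 0 passed. The microtubule-binding tau gene Mapt read 0.71, 0.61, 0.60 and 1.00 (mean 0.73 ± 0.19, adjusted p = 0.0969), above 0 on all 8 arrays, and its other probes read 0.15 ± 0.07 and 0.55 ± 0.27. The kinesin light chain gene Klc2 read -0.25, -0.43, -0.34 and -0.75. In pair 3, where the medians of neuronal markers were highest, Ank3 read its lowest ratio. Ints3, also on the motor neuron side, read its highest there (0.48), and Ammecr1l and Nup54 lay between their extremes. The part of neuronal RNA in these values was not tested.

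Genes were also grouped by their level in controls of the other colony, which shares no mouse with these pairs. Of 1616 genes higher in TAU-P301L control motor neurons than in control glia without overlap, 66.6% lay above 0 in SOD1-G93A glia. Over all tested genes it was 56.8%. At an unadjusted p under 0.05, 137 of the 1616 were above 0 (8.48%) and 16 below (0.99%). The shares over all tested genes were 7.69% and 8.51%. The median of the 1616 was 0.04, and by pair 0.05, 0.01, 0.12 and -0.04. Of 595 genes higher in those control glia, 43% lay above 0, with 17 above (2.86%) and 56 below 0 (9.41%) at that p. Of the 6332 genes on neither side 55.8% lay above 0, with 493 above (7.79%) and 638 below (10.1%) at that p. Ank3, Ammecr1l, Ints3 and Nup54 belong to the motor neuron side, and the part of neuronal RNA in these results was not tested.

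Transporters and buffers of glia are given by their counts, beside 56.8% of all tested genes above 0 and 0.0764% passing. Of 16 genes of glutamate uptake and potassium buffering 13 were above 0, with a median of 0.08 and 0 passing. The glutamine transporter gene Slc38a2 read 0.09, 0.50, 0.45 and 0.40 (adjusted p = 0.115). Among 7 osmolyte and taurine genes, 6 were above 0 and Slc6a6 passed. Csad, which makes taurine from cysteine, read -0.06, 0.23, 0.30 and 0.01. Of 7 tested Slc6 transporter genes 6 were above 0, and the glycine transporter gene Slc6a9 read -0.07, 0.45, 0.18 and 1.12.

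No gene of the energy and redox lists passed. Of 51 oxidative phosphorylation genes 23 were above and 28 below 0, and 0 passed; Cox4i1, a subunit of cytochrome c oxidase, read -0.36, -0.50, -0.40 and -0.60 (mean -0.46 ± 0.11, adjusted p = 0.0880). Its arrays disagreed, with 3 of 8 above 0 and pair 4 at 0.45 and -1.66. Of 14 regulators of mitochondria 9 were above 0. Beside Ppargc1a, its partner nuclear receptor gene Esrrg read -0.21, -0.68, -0.46 and -0.72, and the coactivator gene Crtc3 -0.23, -0.30, -0.36 and -0.27. Of 23 antioxidant genes 15 were above 0 and 0 passed. Gstp1, which conjugates glutathione, read -0.53, -0.40, -0.34 and -0.31 (mean -0.39 ± 0.10, adjusted p = 0.0831), with 1 of 8 arrays above 0, and its other probe above background read -0.08 ± 0.07. Glycolysis genes split 10 above and 11 below.

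Genes of protein quality control lay on both sides of 0, where 56.8% of all tested genes lay above 0 and 0.0764% passed. Of 21 heat shock and chaperone genes 14 were above 0 and 0 passed. Hsf1, the master regulator of the heat shock response, read -0.29, -1.08, -0.51 and -0.87 (adjusted p = 0.0980), but its arrays in pair 2 read -3.22 and 1.06. The mitochondrial chaperonin gene Hspe1 read 0.22, 0.38, 0.07 and 0.12. Of 27 proteasome genes 19 were below 0, with a median of -0.03 and 0 passing. Of 17 genes of endoplasmic reticulum stress 12 were above 0, and of 25 genes of autophagy and lysosome 15. Of 21 nuclear pore and transport genes Nup54 passed, 11 were below 0, and Nup214 read 0.24, 0.32 and 0.58 in the 3 pairs with a value, with its other probes at 0.02 and -0.02.

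Genes of glial reaction did not pass. Of 16 reactive astrocyte genes 8 were above and 8 below 0, with a median at 0.00 and Nes, the intermediate filament nestin, at -0.20, -0.60, -0.06 and -0.69. Activated microglia genes had 8 of 15 above 0, complement genes 4 of 10, and genes of interferon response and antigen presentation 4 of 10. Cytokines, chemokines and their receptors had 9 of 16 above 0, with Cxcl12, a chemokine of vessels and astrocytes, at 0.35, 0.45, 0.10 and 0.13. Matrix genes had 11 of 19 above 0. Ncan, the brain proteoglycan neurocan, read 0.59, 0.60, 0.35 and 0.54, and the membrane protease gene Mmp14 -0.30, -0.58, -0.50 and -1.43, with another Mmp14 probe above background at 0.16 ± 0.13. Among 19 genes linked to amyotrophic lateral sclerosis, 0 passed; angiogenin Ang read -0.22, -0.94, -0.42 and -0.88, and Atxn2 0.32, 0.37, 0.17 and 0.13.

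**Figure D4:**
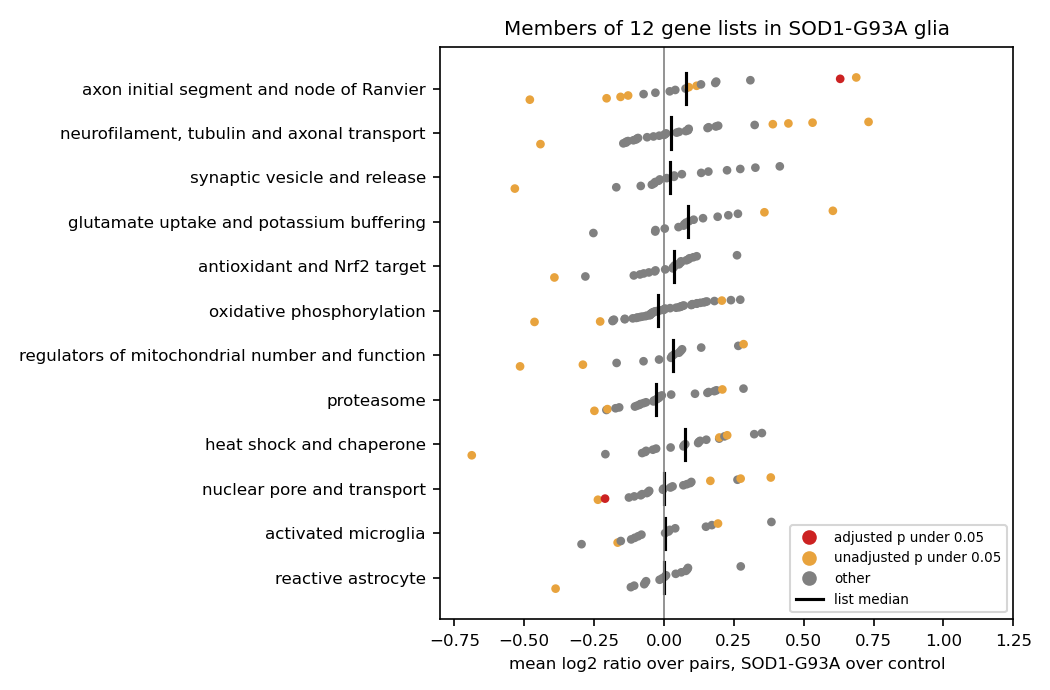
Mean log2 ratio over pairs for each tested member of 12 gene lists in SOD1-G93A glia; each dot is 1 gene, the black bar the list median, and colour shows which test it passed. Red dots are Ank3 at 0.63 and Nup54 at -0.21, and no list lies wholly on 1 side of 0.

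The largest means did not pass. Only 8 genes or probes had a mean over 1 in size, and 7 of the 8 had 1 sign in all 4 pairs. Lars2, the mitochondrial leucyl-tRNA synthetase, read 0.65, 2.84, 0.48 and 2.78 (mean 1.69 ± 1.30, adjusted p = 0.101), and the bicarbonate transporter gene Slc4a7 0.47, 1.56, 0.92 and 1.93, with another Slc4a7 probe at 0.01 ± 0.15. Rgs3, a regulator of G-protein signals, read -0.49, -1.48, -0.69 and -1.70, and its second probe well above background read 0.18 ± 0.18. Ppme1, which demethylates protein phosphatase 2A, read -0.34, -1.31, -0.68 and -1.82. Progranulin Grn read -0.92, 2.17, 0.46 and 2.32. In all 5, pairs 2 and 4 had the largest values, and in Rgs3 the arrays of pair 2 read -4.40 and 1.43.

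Whether these ratios are particular to glia of this model was tested by differences of means, where TAU-P301L glia are from mice of 16 weeks and another strain. Against SOD1-G93A motor neurons 0 of 10465 genes passed (limma, smallest adjusted p = 0.0907, 1518 genes at an unadjusted p under 0.05). Against TAU-P301L glia 0 passed (smallest adjusted p = 0.351, 656 genes). Ank3 had a mean of 0.32 ± 0.11 in SOD1-G93A motor neurons and -0.02 ± 0.20 in TAU-P301L glia. Taok1 had 0.06 ± 0.18 and 0.01 ± 0.07, and Slc6a6 0.08 ± 0.10 and -0.06 ± 0.12. Ints3 had 0.04 ± 0.17 and 0.18 ± 0.12, and Ammecr1l 0.01 ± 0.22 and 0.03 ± 0.16. Akr1cl had 0.06 ± 0.09 and -0.16 ± 0.10, and Nup54 -0.02 ± 0.03 and 0.02 ± 0.03. Muc6 had 0.10 ± 0.10 in SOD1-G93A motor neurons and -0.28 ± 0.11 in TAU-P301L glia, close to its -0.30 here. Several genes that were lower here without passing were also below 0 in TAU-P301L glia. Among them were Sptbn4 (-0.43), Hsf1 (-0.54), Rgs3 (-0.62) and Ppme1 (-0.62), while Gstp1 (0.47) and Cox4i1 (0.09) lay above 0 there. In SOD1-G93A motor neurons Sptbn4 (0.17), Hsf1 (0.12), Rgs3 (0.21), Ppme1 (0.38) and Cox4i1 (0.31) lay above 0, and Gstp1 (-0.16) below. Ppargc1a had -0.04 in both SOD1-G93A motor neurons and TAU-P301L glia. The differences for these genes did not pass, which does not show that the values are alike.

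**Figure D5:**
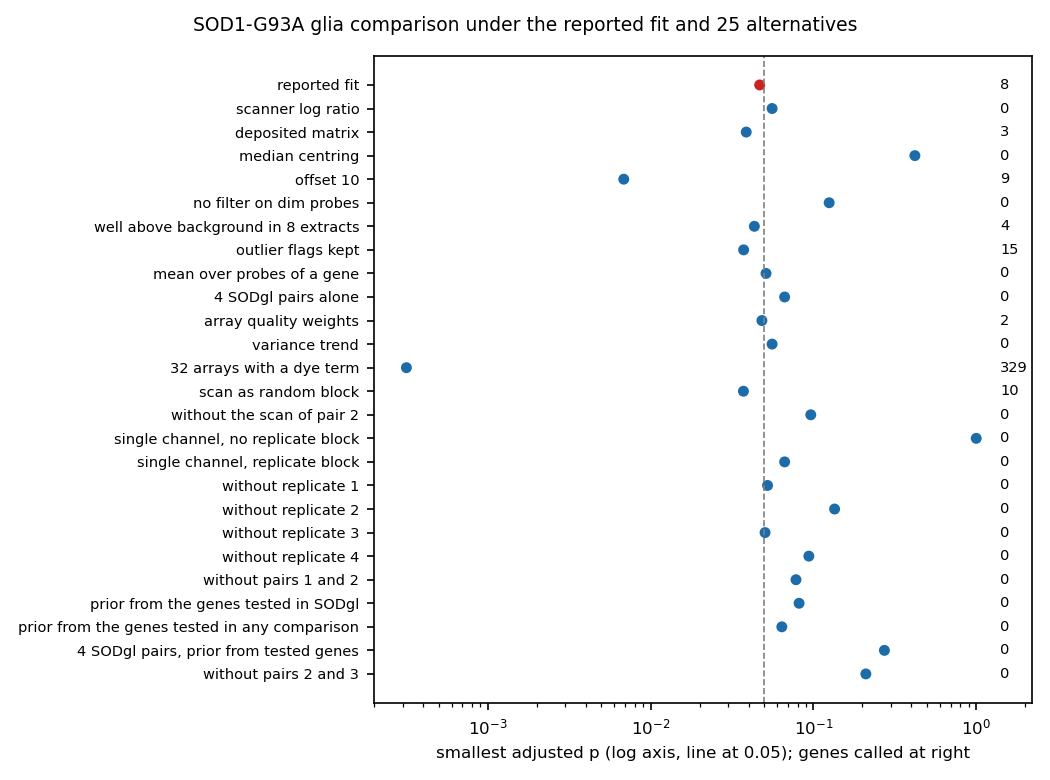
Smallest adjusted p (log axis) of the SOD1-G93A glia comparison under the reported fit, in red, and 25 alternatives, with the number of genes called at right. Dots left of the dashed line at 0.05 call genes; the reported fit calls 8 at 0.0468, and the fit of 32 arrays with a dye term, which counts both arrays of a pair, calls 329.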

How the data were processed

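Each array held a transgenic and a control extract in 2 colours. Per the file headers, the deposited scanner output gives intensity per spot (linear) beside a log10 ratio, and the authors made it with Agilent Feature Extraction, version 9.5.1.1 for the glia arrays per the file headers (8.5.1.1 per the submitters' processing notes). The authors' processed log10 values from the deposited series matrix were used as an alternative. Their scale and direction are unstated; set against the scanner ratios they correlated at 0.988 to 0.994 in size, with column medians of 0. Background was removed from the mean spot signals by normexp (offset 50), and arrays were normalised by loess, in limma 3.58.1 under R 4.3.3. Control spots had weight 0 and outlier-flagged spots were left out. Log2 ratios were turned to transgenic over control and averaged over both arrays of a pair, and a pair lacking either array was left missing. Where a gene had several probes, the brightest stood for it. Probes were named through a RefSeq gene table by accession (23396 of 41174), symbol (6718) or synonym (2915).

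The 16 pairs of the 4 comparisons were fitted together in limma with a mean for each comparison, two-sided, adjusted by Benjamini-Hochberg over the 10465 tested genes at 0.05. The written plan did not say which genes set the variance prior. Versions with the prior from tested genes, from genes tested in any comparison and from all array genes, and with the 4 pairs alone, were run before all array genes was taken; that choice follows the rule of fitting the whole table and an earlier treatment of these data, and it is the only one of these 5 that gives calls. The fit was tested on simulated data, and no value of that test is given here. Marker extracts were compared on log2 intensity per channel after loess and Aquantile.

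The members, the 49 gene lists and the tests were chosen with earlier results of these data known. Named genes were Sod1, all calls, the 12 smallest p per direction among symbol genes with 1 sign in 4 pairs, up to 4 members of a list, and set cell type markers. Genes named with a mean over 1 in size, other list members, and second probes were chosen after their values were seen. Lists were described by counts and medians. Ependymal and red cell markers (2 tested each) had medians of 0.00 and 0.06. The number of matrix columns not matched to a sample was 0. Some genes that meet the rule are not reported here.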

Additional observations from a re-analysis of the deposited data

Results flagged for a closer look

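There were 3 results that had a single pair far from the other 3, by Dixon's ratio, among 82 sets of 4 pair values examined; chance marks about 1 in 20 such sets. Pair 3 was the distant pair in each. The pan-neuronal markers had a median of 0.42 in pair 3, the fibroblast and meningeal markers of -1.40, and the Integrator genes of 0.091. Motor neuron markers, at 1.08 in pair 3, did not exceed Dixon's ratio.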

How the results depend on the processing

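The 8 calls of the reported fit kept their direction wherever they were tested, and few stayed past the threshold. The count of genes past it was 0 with the scanner log ratio, median centring, no filter on dim probes, the mean over probes, the 4 pairs alone, a variance trend, without the scan of pair 2, and without the pairs whose dye-exchanged arrays correlate at or below 0. It was 3 with the deposited matrix (all higher, 0 of them among the 8), 4 for genes above background in 8 extracts, 2 with array quality weights, 15 with outlier flags kept (with all 8 among them), and 329 for 32 arrays with a dye term, which counts both arrays of a pair. An offset of 10 gave 9 (7 higher, 2 lower) and scan as a random block 10. Without each replicate in turn it was 0 in every case. As the design has littermate pairs, single-channel intensity was also fitted with no replicate block, giving 0 calls (157 genes at an unadjusted p under 0.05), and with the pair as replicate block, giving 0 (1776). Fits outside the written plan gave 0. These took the prior from genes tested in SODgl, from genes tested in any comparison, or the 4 pairs with the prior from tested genes. They were run before the reported prior was taken with the counts known. A fit without pairs 2 and 3, chosen after seeing the data, also gave 0. Median centring moved the split at an unadjusted p under 0.05 to 932 above and 249 below 0. For the differences, counts were 0 to 1 against motor neurons (1 without replicate 4) and 0 in each case against TAU-P301L glia, and 0 for both with the same number as replicate block. Same-numbered pairs deviated together at -0.107 to 0.24 against motor neurons and -0.155 to 0.308 against TAU-P301L glia. Both arrays of a glia pair correlated at only -0.46 to 0.507, so these values cannot show whether same-numbered captures share mice. The reported differences did not pair the groups by number. Sod1 turned positive with median centring (0.41), without replicate 2 or its scan (0.0047), without the low-correlation pairs (0.064) and without pairs 2 and 3 (0.087), and ranged from -0.24 to 0.0047 with each replicate left out. Mbp turned with median centring (0.41) and the mean over probes (0.058). Snap25 turned with median centring (0.21), array weights (0.019) and without replicate 4, with a range from -0.18 to 0.21 over replicates left out. Requiring 8 extracts above background leaves out Nup54, Taok1, Akr1cl and Ammecr1l.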
